A study of Mus musculus with 9 samples.

Results

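Among the 52405 entries of a mouse kidney expression table, 10 genes encode sugar and lactate carriers of the Slc5 and Slc2 families that are followed here across 9 libraries. They are the sodium-coupled carriers Slc5a1, Slc5a2, Slc5a8, Slc5a9, Slc5a10, Slc5a11 and Slc5a12 and the facilitative carriers Slc2a1, Slc2a2 and Slc2a4. They were taken from the table by gene symbol, and each symbol stood on 1 line. In both female groups Slc5a1, Slc5a10, Slc5a11 and Slc5a8 were higher than in males, by 1.61-fold to 3.16-fold in mean FPKM (mapped fragments per 1e+06, divided by transcript length in kilobases). Slc5a2, the most abundant of the 10, did not pass the test in any comparison, nor did Slc5a9, Slc5a12, Slc2a1, Slc2a2 or Slc2a4. None of the 10 passed in ovariectomized against sham-operated females.

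Filtered glucose is taken back across the brush border of the proximal tubule by sodium-coupled carriers, which use the sodium gradient across the membrane, and leaves the cell on the blood side through facilitative carriers. In the early part of the tubule this is mainly the work of SGLT2 (Slc5a2) and GLUT2 (Slc2a2), and SGLT1 (Slc5a1) recovers what remains in the late, straight part. Lactate follows a similar arrangement in mouse kidney, with the low-affinity carrier SMCT2 (Slc5a12) early and the high-affinity carrier SMCT1 (Slc5a8) late.

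RNA came from C57BL/6 mice, from cells of the kidney cortex that an antibody against prominin-1 held on a magnetic column. The groups were females ovariectomized at postnatal day 21 (D21-ovx), females that had a sham operation at postnatal day 21 (D21-s) and sham-operated adult males (M), with 3 libraries each that are labelled as biological replicates. When the males were operated on, and which animals or pools stand behind a library, is not in the labels, so p-values cover the spread between these libraries. Any effect of sex and any difference in the timing of surgery between females and males cannot be told apart.

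The libraries matched their labelled sex: Xist lay at 32.68 to 43.15 FPKM in the 6 female libraries and at 0 to 0.04 in the males, and Ddx3y was listed at 0 in every female library. Small FPKM values are spaced by what 1 read is worth, and this spacing put the depth at about 21.25 to 28.75 times 1e+06 reads. The lowest member value, Slc2a4 in D21-s library 2, stood for about 327 reads at the length of the longest of its 8 annotated transcripts. A shorter transcript would give fewer. Prom1, which encodes the sorted antigen, was higher in both female groups (log2 fold change 1.08, limma adjusted p = 0.00671 in D21-s against M, and 0.71, adjusted p = 0.0357 in D21-ovx against M). The second of these calls was lost in 7 of the 21 other settings tried, among them those without M library 1 (limma adjusted p = 0.0758), M library 2 (0.116) or any 1 of the D21-ovx libraries (0.0638 to 0.106). With the level of other cell types' markers, given next, as a covariate, neither was called (0.67, limma adjusted p = 0.245 in D21-s, and 0.38, adjusted p = 0.401 in D21-ovx). Early proximal tubule markers summed to 5276 to 5832 FPKM in D21-ovx, 5173 to 6305 in D21-s and 3962 to 5395 in M. Of the 10 markers, 3 were called higher in D21-ovx than in M and 4 in D21-s than in M. Of all genes tested, 5.63% and 4.28% were called higher. Late proximal tubule markers summed to 2305 to 2642 FPKM in D21-ovx, 2066 to 2301 in D21-s and 1845 to 2370 in M. Markers of other cell types were present. Those of the thick ascending limb summed to 1250 to 1696 FPKM in D21-ovx, 991.4 to 1597 in D21-s and 1529 to 2514 in M. Distal convoluted tubule markers summed to 301.4 to 476.8, 214.8 to 473.0 and 571.6 to 818.9 FPKM in the same order of groups. Over 43 markers of cells other than proximal tubule, the mean centred log2 level was 0.23, -0.44 and -0.30 in the D21-ovx libraries, 0.06, -0.26 and -0.80 in D21-s and 0.32, 0.73 and 0.47 in M, so the males stood above all 6 female libraries. In such bulk samples, fewer cells of a type and less RNA per cell cannot be told apart.

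Levels of the 10 genes spanned from 4.5 FPKM for Slc2a4 in a D21-s library to 901 FPKM for Slc5a2 in a male library, and FPKM is a scale per transcript length on which genes can be set side by side. Slc5a2, Slc5a12 and Slc2a2 led, in this order, by mean FPKM in each of the 3 groups. Slc5a12 and Slc2a2 overlapped in range, but Slc5a12 was above Slc2a2 within each of the 3 libraries of every group. In D21-ovx and D21-s females Slc5a10, Slc5a11, Slc5a8, Slc5a1, Slc5a9, Slc2a1 and Slc2a4 followed in the same order. In D21-ovx the neighbours Slc5a11 and Slc5a8, and Slc5a9 and Slc2a1, overlapped. In D21-s only Slc5a10 with Slc5a11 and Slc2a1 with Slc2a4 overlapped among these. In males the order after Slc2a2 was Slc5a11, Slc5a10, Slc2a1, Slc5a8, Slc2a4, Slc5a9 and Slc5a1, and every one of them overlapped the next. Slc5a1 thus took the last place in males and the seventh in both female groups.

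**Figure D1:**
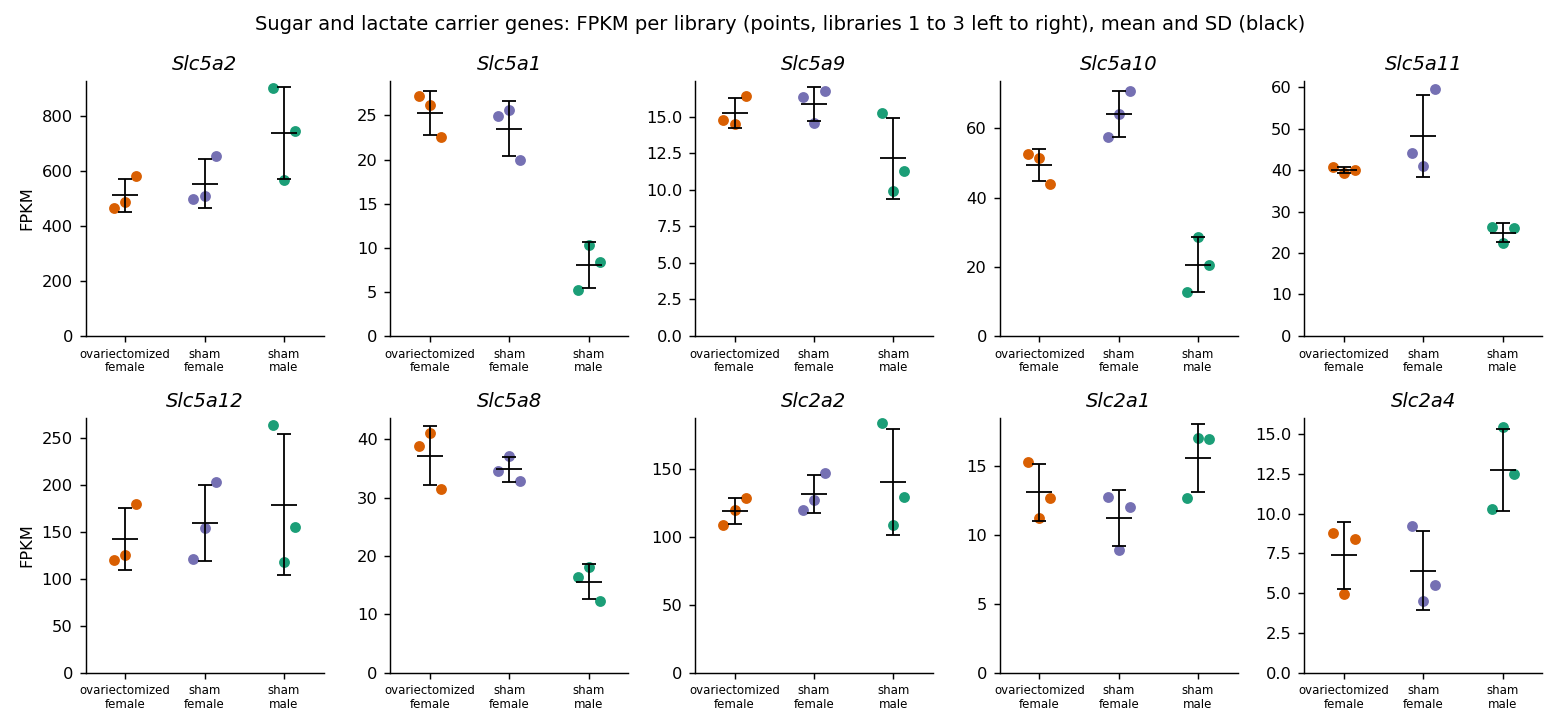
FPKM of each of the 10 genes on a linear axis from 0, with ovariectomized females (D21-ovx), sham females (D21-s) and sham males (M) from left to right in each panel; points are libraries, and the black dash and whiskers are the group mean and SD (n = 3). Slc5a1, Slc5a10, Slc5a11 and Slc5a8 lie higher in all 6 female libraries than in any male library, and Slc2a4 lies lower.

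The late glucose carrier gene Slc5a1 (ENSMUSG00000011034, chromosome 5, 33104219 to 33162870, GRCm38) was higher in females. It had 27.2, 26.19 and 22.5 FPKM in D21-ovx libraries 1 to 3, 24.92, 25.62 and 19.94 in D21-s and 5.22, 10.35 and 8.43 in M. The lowest female library, at 19.94, was above the highest male one, at 10.35, and the 2 female groups overlapped. The means were 25.3 ± 2.47, 23.5 ± 3.10 and 8.0 ± 2.59 FPKM (SD, n = 3 each) in D21-ovx, D21-s and M. In D21-s against M the log2 fold change was 1.48 (SE 0.20, adjusted p = 0.00209, limma on log2(FPKM + 1) with Benjamini-Hochberg adjustment over 13160 genes), and in D21-ovx against M it was 1.59 (SE 0.20, adjusted p = 0.00104).

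Slc5a10 (ENSMUSG00000042371, chromosome 11, 61672781 to 61720826) encodes SGLT5, a kidney carrier known for mannose and fructose. Its FPKM was 52.71, 51.54 and 43.95 in D21-ovx, 57.6, 64.15 and 70.77 in D21-s and 12.64, 28.68 and 20.42 in M. All female libraries were above all male ones, and the D21-ovx libraries lay below the D21-s libraries. In D21-s the mean of 64.2 ± 6.59 FPKM was 3.12-fold that of 20.6 ± 8.02 in M (SD, n = 3), the largest ratio of means among the 10 genes in this comparison, with a log2 fold change of 1.66 (SE 0.23, limma adjusted p = 0.00260). In D21-ovx the mean of 49.4 ± 4.76 FPKM was 2.40-fold that in M, with a log2 fold change of 1.29 (SE 0.23, limma adjusted p = 0.00782). On the opposite strand Fam83g shares 393 bp of exon with Slc5a10 and had 3.69 to 6.37 FPKM, and since the strand setting of the counting is not given in the sources used here, reads of this overlap cannot be assigned with certainty.

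Slc5a11 (ENSMUSG00000030769, chromosome 7, 123214780 to 123273253) encodes SMIT2, which carries myo-inositol with sodium. It stood at 40.84, 39.42 and 40.15 FPKM in D21-ovx, at 44.18, 41.08 and 59.68 in D21-s and at 26.32, 22.34 and 26.1 in M. The female and male libraries did not overlap, and neither did the 2 female groups. In D21-s against M the log2 fold change was 0.91 (SE 0.13, limma adjusted p = 0.00260), and in D21-ovx against M it was 0.67 (SE 0.13, limma adjusted p = 0.0104). With the level of other cell types' markers as a covariate, the log2 fold changes were 0.63 (limma adjusted p = 0.120) and 0.45 (limma adjusted p = 0.155), and Slc5a11 was no longer called in either comparison. This level was higher in every male than in any female library. Over all genes, 334 were called with the covariate and 1204 without it in D21-s against M. In D21-ovx against M these counts were 664 and 1555.

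The high-affinity lactate carrier gene Slc5a8 (ENSMUSG00000020062, chromosome 10, 88885992 to 88929515) had 38.81, 41.16 and 31.5 FPKM in D21-ovx, 34.62, 37.14 and 32.89 in D21-s and 16.34, 18.13 and 12.24 in M. The 2 female groups overlapped, and both lay wholly above the males. The log2 fold change was 1.13 (SE 0.14, limma adjusted p = 0.00143) in D21-s against M and 1.21 (SE 0.14, limma adjusted p = 0.000714) in D21-ovx against M. In mean FPKM these were differences of 2.24-fold and 2.39-fold.

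Both late carrier genes, Slc5a1 and Slc5a8, can be set beside 7 tested markers of the late proximal tubule, of which 4 were higher and 3 lower in each female group than in M. Over all genes tested, 4.28% were called higher and 4.87% lower in D21-s against M, and 5.63% and 6.19% in D21-ovx against M. The 4 that differed most in D21-s, named after their values were seen, went both ways. Slc22a13, an organic anion carrier gene, averaged 16.2 FPKM in D21-ovx and 12.5 in D21-s, against 0.5 in M, with log2 fold changes of 3.52 and 3.18 (limma adjusted p = 3.10e-06 and 6.30e-06). Slc6a18, a neutral amino acid carrier gene, averaged 200.7, 155.7 and 27.2 FPKM in the same order, with log2 fold changes of 2.85 and 2.49 (limma adjusted p = 3.10e-06 and 8.02e-06). Slc7a13, which encodes a carrier of acidic amino acids and cystine, averaged 0.16 FPKM in D21-ovx and 0.17 in D21-s, against 47.8 in M, and Atp11a, which encodes a lipid flippase, 17.4, 22.8 and 71.8. These 4 were called against M in all 21 other settings, added for them after seeing the data. What part the late tubule's share of the sorted cells had in Slc5a1 and Slc5a8 was not tested.

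The bases just before the transcription start are shown for Slc5a1, Slc5a8, Slc5a10 and Slc5a11 because these 4 genes moved the same way in females. They are RefSeq sequences of GRCm38.p6, written 5′ to 3′ on the strand of the gene, without bases that the annotation places in an exon. Capitals mark a match, on either strand, to GTTAAT (an HNF1 core), AGGTCA (a nuclear receptor core) or AGAACA (an androgen and glucocorticoid receptor core). Slc5a1 is chr5:33103969-33104218 and Slc5a8 is chr10:88885742-88885991, both on the plus strand. Slc5a10 is chr11:61720827-61721049 on the minus strand, and Slc5a11 is chr7:123214616-123214779 on the plus strand.
Slc5a1: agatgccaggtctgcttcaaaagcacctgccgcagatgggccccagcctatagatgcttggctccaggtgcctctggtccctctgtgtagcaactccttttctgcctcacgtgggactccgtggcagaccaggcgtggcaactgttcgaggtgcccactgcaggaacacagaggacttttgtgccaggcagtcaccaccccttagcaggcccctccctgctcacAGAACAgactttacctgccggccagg
Slc5a8: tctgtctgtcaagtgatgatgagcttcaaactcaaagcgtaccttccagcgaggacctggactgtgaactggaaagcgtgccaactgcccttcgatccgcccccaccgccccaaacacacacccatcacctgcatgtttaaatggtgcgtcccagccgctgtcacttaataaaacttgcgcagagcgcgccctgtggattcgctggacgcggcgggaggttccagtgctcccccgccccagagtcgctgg
Slc5a10: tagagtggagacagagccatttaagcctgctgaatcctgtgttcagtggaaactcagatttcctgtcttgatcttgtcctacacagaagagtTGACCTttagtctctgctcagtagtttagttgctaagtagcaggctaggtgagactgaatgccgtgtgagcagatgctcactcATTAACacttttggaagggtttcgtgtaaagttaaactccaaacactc
Slc5a11: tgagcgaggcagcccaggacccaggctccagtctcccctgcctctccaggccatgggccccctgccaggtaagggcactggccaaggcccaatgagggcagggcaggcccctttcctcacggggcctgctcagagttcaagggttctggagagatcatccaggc

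The motifs were counted in windows of 250 bases before the start, of which 7 were at hand for 6 of the 10 genes. Slc5a10 also had a window before another start, at 61719985, which is not printed and held none of the motifs. GTTAAT was in 1 of the 7 windows, the printed one of Slc5a10, against 6.43% of 32851 RefSeq windows. Its match begins 75 bases before the RefSeq start at 61720799. The last 27 bases before that start are exonic and not printed. AGGTCA was in 3 of 7, against 14% of all windows: in the printed window of Slc5a10, in Slc2a2 and, within the exonic bases not printed, in Slc5a11. AGAACA was in 1 of 7, that of Slc5a1, against 16.1% of all windows. The STAT core TTCNNNGAA was in 0 of 7, against 7.02%. No motif was held by all 4 genes that were higher in females, and no match was found in the window of Slc5a8. These are matches of letters only.

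Slc5a2 (ENSMUSG00000030781, chromosome 7, 128265657 to 128272430), the main carrier of filtered glucose, had 465.74, 488.13 and 580.12 FPKM in D21-ovx, 497.02, 507.6 and 656.19 in D21-s and 901, 567.95 and 744.85 in M. The groups overlapped: 1 male library lay below the highest library of each female group. The means were 511 ± 60.6, 554 ± 89.0 and 738 ± 167 FPKM (SD, n = 3 each). The log2 fold change was -0.40 (SE 0.17, limma adjusted p = 0.174) in D21-s against M and -0.51 (SE 0.17, limma adjusted p = 0.0880) in D21-ovx against M. The second of these passed the test without M library 2 (-0.69, limma adjusted p = 0.0292) and with the other cell types' marker level as a covariate (-0.87, limma adjusted p = 0.0266). Slc5a2 shares 597 bp of exon with BC017158 on the opposite strand, which had 15.49 to 21.08 FPKM.

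Slc5a9 (ENSMUSG00000028544) encodes SGLT4, known as a carrier of mannose and fructose. It stood at 14.51 to 16.47 FPKM in D21-ovx, 14.57 to 16.76 in D21-s and 9.94 to 15.29 in M. Its log2 fold change was 0.38 (SE 0.14, limma adjusted p = 0.121) in D21-s against M and 0.32 (SE 0.14, limma adjusted p = 0.162) in D21-ovx against M. M library 1 alone overlapped the females, and without it both comparisons passed, at 0.54 (limma adjusted p = 0.0136) and 0.49 (limma adjusted p = 0.0183).

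The low-affinity lactate carrier gene Slc5a12 (ENSMUSG00000041644, chromosome 2, 110597298 to 110647779) had 119.9, 125.51 and 179.7 FPKM in D21-ovx, 121.26, 153.52 and 202.32 in D21-s and 263.09, 118.16 and 154.93 in M. The 3 groups overlapped, and the spread within the males was wider than any difference between groups. The log2 fold change was -0.12 (95% interval -0.78 to 0.54, limma adjusted p = 0.832) in D21-s against M and -0.28 (95% interval -0.94 to 0.39, limma adjusted p = 0.565) in D21-ovx against M.

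Among the facilitative carriers, Slc2a2 (ENSMUSG00000027690, chromosome 3, 28697903 to 28731359), the glucose exit of the early tubule, had 108.77, 119.3 and 128.21 FPKM in D21-ovx, 119.54, 127.33 and 146.72 in D21-s and 183.43, 108.45 and 129.06 in M. The 3 groups overlapped. Its log2 fold change was -0.07 (95% interval -0.45 to 0.32, limma adjusted p = 0.836) in D21-s against M and -0.21 (95% interval -0.59 to 0.18, limma adjusted p = 0.447) in D21-ovx against M.

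Slc2a1 (ENSMUSG00000028645, chromosome 4) encodes GLUT1, the glucose carrier of many cell types. It ran from 11.28 to 15.35 FPKM in D21-ovx, 8.93 to 12.74 in D21-s and 12.72 to 17.06 in M. The groups overlapped, and the log2 fold change was -0.44 (SE 0.16, limma adjusted p = 0.125) in D21-s against M and -0.23 (SE 0.16, limma adjusted p = 0.379) in D21-ovx against M. Slc2a1 and the markers of other cell types were both at their lowest means in D21-s, and the part of those cells in its level was not tested.

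Slc2a4 (ENSMUSG00000018566, chromosome 11, 69942539 to 69948188) encodes GLUT4, the insulin-responsive carrier of muscle and fat. Its values were 8.82, 4.95 and 8.39 FPKM in D21-ovx, 9.24, 4.5 and 5.53 in D21-s and 10.33, 15.47 and 12.53 in M. Every female library was below every male one, and the female groups overlapped. The difference did not pass the test in D21-s against M (log2 fold change -0.93, SE 0.26, limma adjusted p = 0.0614) or in D21-ovx against M (-0.73, SE 0.26, limma adjusted p = 0.105). In D21-s against M it passed without D21-s library 1 (-1.18, limma adjusted p = 0.0209) and without D21-ovx library 2 (-0.93, limma adjusted p = 0.0456). Other settings weakened it. Over the 21 settings the log2 fold change ran from -1.18 to -0.28 in D21-s against M, with limma adjusted p up to 0.788. In D21-ovx against M it ran from -0.87 to -0.21, with limma adjusted p up to 0.776. With the marker covariate Slc2a4 was not called in either comparison. Adipocyte markers summed to 0.02 FPKM at most in any library, with 3 of the 4 listed at 0 throughout, and skeletal muscle markers to 0.27 FPKM at most. The summed FPKM of distal convoluted tubule, of principal cell and of intercalated cell markers was, like Slc2a4, higher in each male library than in any female library, and the part of these cells in the Slc2a4 level was not tested.

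In D21-s against M, 4 of the 10 genes were called higher and 0 lower, where 9.15% of all genes tested were called, 4.28% higher and 4.87% lower. At an unadjusted p under 0.05 there were 8 of the 10 genes and 26.6% of all genes. The median log2 fold change of the 10 was 0.16, and that of all genes tested was -0.09. In D21-ovx against M the count was again 4 higher and 0 lower, against 11.8% of all genes called, 5.63% higher and 6.19% lower, with a median of 0.06 for the 10 and -0.09 for all. The 2 comparisons share the same 3 male libraries. At an unadjusted p under 0.05 there were 7 of the 10 genes and 28.6% of all genes in D21-ovx against M. Libraries separated fully for 4 of the 10 genes higher and 1 lower in each comparison. Over all genes this held for 30.3% in D21-s against M, 9.66% higher and 20.6% lower, and for 34.1% in D21-ovx against M, 10.9% higher and 23.2% lower. The split of all calls moved with the scaling, to 845 higher and 468 lower in D21-s against M and 1023 and 487 in D21-ovx against M under median-ratio scaling, but the 10 genes gave 4 higher and 0 lower under all 3 other scalings.

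**Figure D2:**
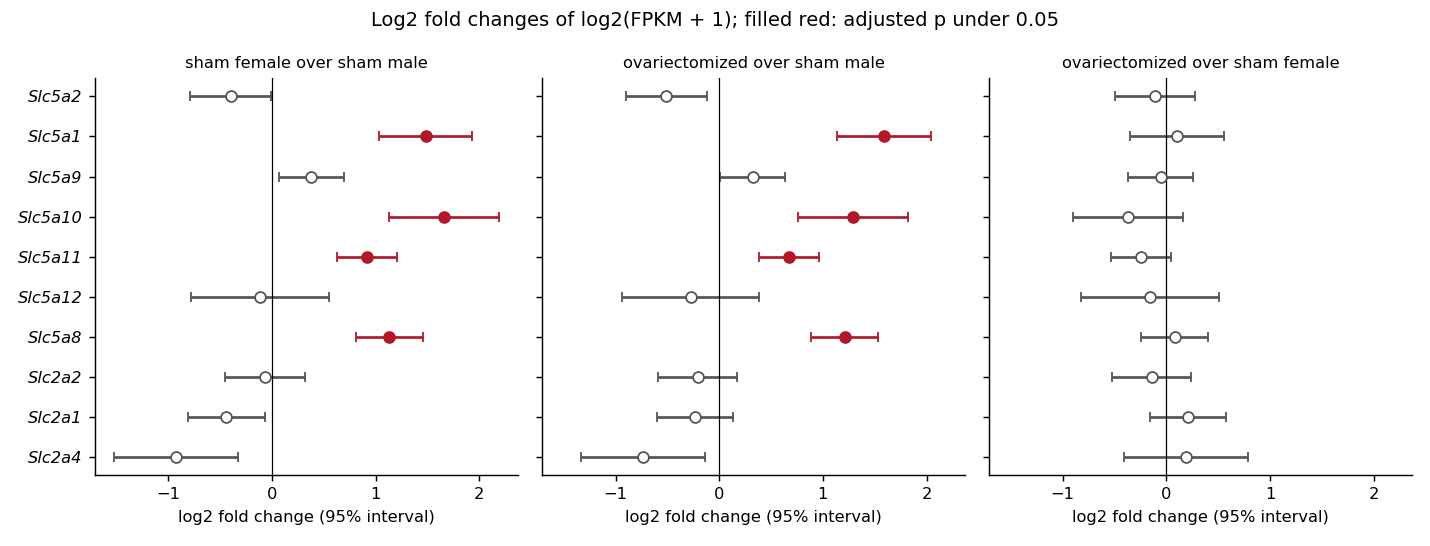
Log2 fold change of each of the 10 genes in D21-s against M (left), D21-ovx against M (middle) and D21-ovx against D21-s (right), with 95% intervals from the limma fit; filled red points passed an adjusted p of 0.05. Slc5a1, Slc5a10, Slc5a11 and Slc5a8 lie to the right in both comparisons with males, and every interval of D21-ovx against D21-s crosses 0.

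Ovariectomy at day 21 was not followed by a called difference in any of the 10 genes against sham-operated females. Of all genes tested 0.0076% were called in D21-ovx against D21-s, which is 1 gene, Pllp, named here because it was the only one and so after its values were seen. Pllp encodes plasmolipin, a membrane protein, and had 17.2, 16.51 and 17.08 FPKM in D21-ovx against 40.54, 38.85 and 43.62 in D21-s (log2 fold change -1.23, limma adjusted p = 0.0417). The call was lost with the replicate block (limma adjusted p = 0.0575) and in 9 other of the 21 alternatives tried, among them those without D21-s library 1 or 3 or any 1 of the D21-ovx libraries (0.161 to 0.291). Over the alternatives 0 to 11 genes were called in this comparison, and 0 of the 10 carriers in each. At an unadjusted p under 0.05 there were 0 of the 10 genes and 6.29% of all genes.

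Log2 fold changes of the 10 genes in D21-ovx against D21-s ran from -0.37 for Slc5a10 to 0.21 for Slc2a1, and the smallest adjusted p was 0.866. Slc5a10 at -0.37 (95% interval -0.90 to 0.16, limma unadjusted p = 0.148) and Slc5a11 at -0.24 (95% interval -0.53 to 0.05, limma unadjusted p = 0.0908) were the 2 genes whose libraries separated, both lower in D21-ovx. Separated libraries were found for 12.9% of all genes, 6.09% lower and 6.76% higher in D21-ovx. Intervals of the other 8 genes lay between -0.82 and 0.79, the bounds of Slc5a12 and Slc2a4, the least precise. Slc5a1 at 0.11 (95% interval -0.35 to 0.56) and Slc5a8 at 0.08 (95% interval -0.24 to 0.41) were not distinguishable between the female groups at this spread.

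Ratios within a library set a late or alternative carrier against an early or main one, free of the scaling of that library. Slc5a1 amounted to 5.84%, 5.37% and 3.88% of the Slc5a2 FPKM in D21-ovx, 5.01%, 5.05% and 3.04% in D21-s and 0.579%, 1.82% and 1.13% in M. All female libraries were above all male ones. The log2 ratio was higher by 2.00 in D21-s than in M, a factor of 4.01, and by 2.22 in D21-ovx than in M, a factor of 4.67. For each, an exact two-sided permutation test gave p = 0.1, the smallest that 3 against 3 libraries allow, and 0.2 after adjustment over the 12 ratio comparisons made.

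The share of Slc5a8 relative to Slc5a12 was 32.4%, 32.8% and 17.5% in D21-ovx, 28.6%, 24.2% and 16.3% in D21-s and 6.21%, 15.3% and 7.90% in M. The lowest female share was 16.3% and the highest male share 15.3%, so the groups separated narrowly. The log2 ratio was higher by 1.30 in D21-s and by 1.54 in D21-ovx than in M (exact permutation p = 0.1 each, adjusted 0.2). Slc5a10 relative to Slc5a2 was 11.3%, 10.6% and 7.58% in D21-ovx, 11.6%, 12.6% and 10.8% in D21-s and 1.40%, 5.05% and 2.74% in M. Its log2 ratio was higher by 2.12 in D21-s and by 1.85 in D21-ovx than in M (exact permutation p = 0.1 each, adjusted 0.2).

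Among the exit carriers the picture differed. Slc2a1 was 14.1%, 9.46% and 9.91% of Slc2a2 in D21-ovx, 10.7%, 7.01% and 8.21% in D21-s and 6.93%, 15.7% and 13.2% in M, and the groups overlapped. The log2 difference was -0.41 in D21-s against M (exact permutation p = 0.4) and -0.04 in D21-ovx against M (exact permutation p = 1). Between D21-ovx and D21-s the 4 log2 ratios differed by -0.27 to 0.37, with exact permutation p from 0.2 to 0.5. Within same-numbered libraries, all 3 pairs of D21-ovx and D21-s shared a sign in each of the 4 ratios, higher in D21-ovx for 3 ratios and lower for that of Slc5a10 to Slc5a2. An exact two-sided sign-flip permutation test of the pairs, added after seeing the data, gave p = 0.25 for each, the smallest that 3 pairs allow.

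**Figure D3:**
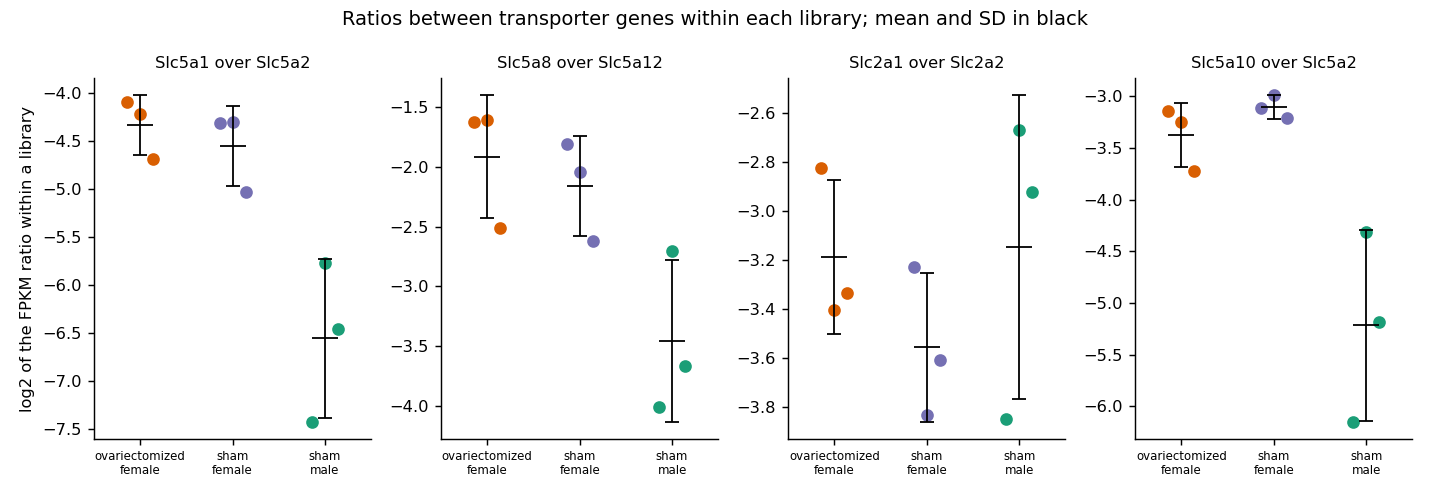
Log2 of the FPKM ratio of Slc5a1 to Slc5a2, Slc5a8 to Slc5a12, Slc2a1 to Slc2a2 and Slc5a10 to Slc5a2, 1 point per library, with ovariectomized females, sham females and sham males from left to right and the group mean and SD (n = 3) in black; each panel has its own axis. In all but the ratio of Slc2a1 to Slc2a2 the 6 female libraries lie above the 3 male ones.

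Libraries of the same group differed in an ordered way. Slc5a12 and Slc2a2 ranked the 3 libraries of a group in the same order as Slc5a2 did, in 3 of 3 groups. Slc5a9 was also highest in the library where Slc5a2 was highest in each group, but kept the full order in 1 of 3. Slc5a1 was lowest in the library where Slc5a2 was highest, also in 3 of 3 groups, and Slc5a8 and Slc5a10 in 2 of 3. In D21-s, however, Slc5a10 ranked the libraries in the same order as Slc5a2. The library with the most Slc5a2 was number 3 in D21-ovx (580.12 FPKM), number 3 in D21-s (656.19 FPKM) and number 1 in M (901 FPKM). With 3 libraries a group these orders are a description, and no correlation was computed.

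The level of other cell types' markers was lowest of its group in D21-s library 3 at -0.80 and in M library 1 at 0.32, the libraries with the most Slc5a2. In D21-ovx it was lowest in library 2 at -0.44, and library 3, with the most Slc5a2, had -0.30. Without M library 1, the male with the most Slc5a2, Slc5a12 and Slc2a2 and the least Slc5a1 and Slc5a10, the log2 fold changes in D21-s against M were still past the threshold for Slc5a1, Slc5a10, Slc5a11 and Slc5a8. The part of cell composition in the order within groups was not tested.

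**Figure D4:**
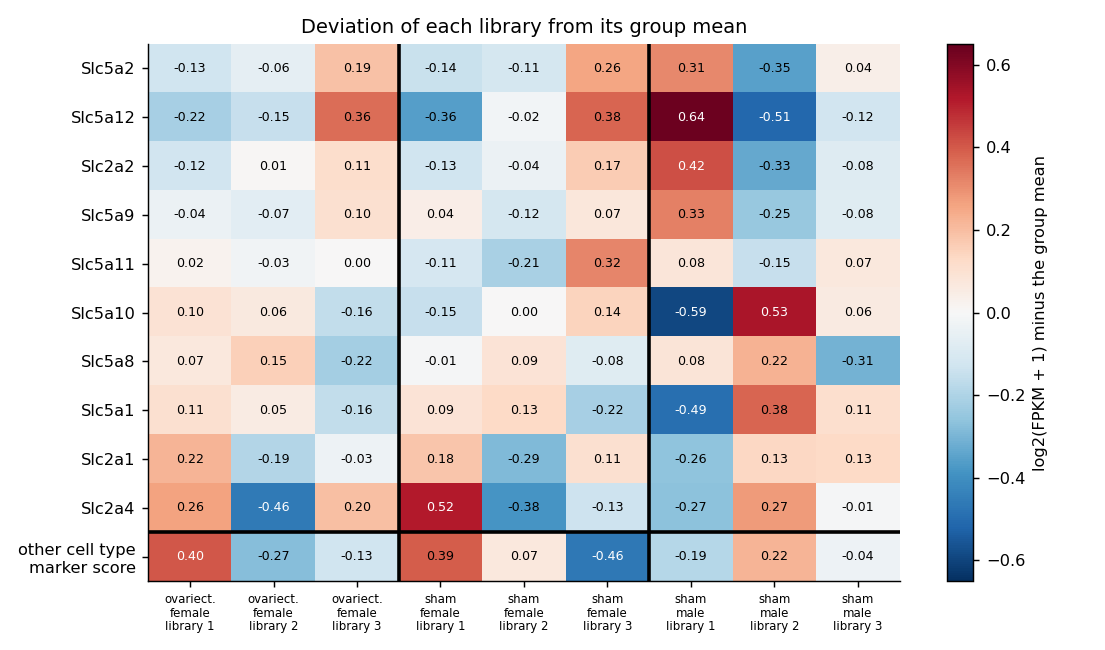
Deviation of each library from its group mean on the log2(FPKM + 1) scale for the 10 genes, and for the mean level of 43 markers of other cell types, with libraries of D21-ovx, D21-s and M from left to right; red is above and blue below the group mean. Slc5a2, Slc5a12, Slc2a2 and Slc5a9 share the library in which they are highest in each group, and Slc5a1 is lowest there.

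Of 15 other Slc5 and Slc2 genes looked up, 6 were expressed enough to be tested: Slc5a3, Slc5a6, Slc2a5, Slc2a8, Slc2a9 and Slc2a12. In D21-s against M, 1 of the 6 was higher and 0 lower, and in D21-ovx against M and D21-ovx against D21-s none was called. Over all genes tested, 9.15%, 11.8% and 0.0076% were called in these comparisons, in the same order. The gene called was Slc5a6, which encodes the sodium-dependent multivitamin carrier and had 14.2 ± 2.09 FPKM in D21-s and 9.02 ± 0.873 in M (SD, n = 3; log2 fold change 0.59, limma adjusted p = 0.0151). This call was lost without M library 3 (limma adjusted p = 0.0608), without D21-s library 2 (limma adjusted p = 0.0505) and with the marker covariate (limma adjusted p = 0.159). The fructose carrier gene Slc2a5 was at 52.2 FPKM in D21-s and 33.1 in M (0.68, limma adjusted p = 0.0627), and the urate carrier gene Slc2a9 at 7.19 in D21-s and 10.3 in M (-0.47, limma adjusted p = 0.0627). Slc2a5 was called without M library 1 in D21-s against M (0.94, limma adjusted p = 0.00187) and in D21-ovx against M (0.78, limma adjusted p = 0.00369), and under median-ratio scaling in D21-s against M (0.77, limma adjusted p = 0.0453). Slc2a9 was called in D21-s against M without D21-ovx library 2 (limma adjusted p = 0.0219) and with the 6 libraries alone (0.0448). In D21-ovx against M it was called with a mean FPKM of at least 5 (limma adjusted p = 0.0475) and with rescaling without mitochondrially encoded genes (0.0493). Slc5a3 was called lower without M library 1, in D21-s against M (-0.89, limma adjusted p = 0.0260) and in D21-ovx against M (-0.73, limma adjusted p = 0.0482).

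Genes of the metabolism that these carriers serve were read from 3 lists: partners and regulators of the SGLTs, lactate carriers and lactate dehydrogenases, and hexose and inositol enzymes. Of 15 hexose and inositol enzyme genes tested, 6 were higher and 2 lower in D21-s than in M, and 7 higher and 1 lower in D21-ovx than in M. The shares of all genes tested were 4.28% higher and 4.87% lower in D21-s, and 5.63% and 6.19% in D21-ovx. Pck1, which encodes the cytosolic phosphoenolpyruvate carboxykinase of gluconeogenesis, was at 2741 ± 288 FPKM in D21-ovx and 2489 ± 231 in D21-s, against 931 FPKM in M (SD, n = 3; log2 fold changes 1.55 and 1.42, limma adjusted p = 2.08e-05 and 4.89e-05). Miox, whose product begins the breakdown of myo-inositol, was at 3346 ± 86.9 FPKM in D21-ovx and 2834 ± 189 in D21-s, against 1909 in M (0.81 and 0.57, limma adjusted p = 6.29e-05 and 0.000680). Akr1b3, which encodes aldose reductase, was lower in both, by log2 fold changes of -0.91 (limma adjusted p = 0.00567) in D21-ovx and -0.75 (limma adjusted p = 0.0180) in D21-s. In D21-s against M, Hk1, a hexokinase gene, was lower (-0.96, limma adjusted p = 0.0286), and Tkfc, whose product acts in fructose breakdown, was higher (0.58, limma adjusted p = 0.00691). G6pc, which encodes the glucose-6-phosphatase that releases glucose, had 453.05, 467.81 and 518.01 FPKM in D21-ovx, 238.42, 256.33 and 281.26 in D21-s and 331.87, 199.3 and 125.79 in M. The D21-ovx libraries lay above all others, and those of D21-s lay within the range of M. It was called in D21-ovx against M (1.24, limma adjusted p = 0.0210) and not in D21-ovx against D21-s (0.89, limma adjusted p = 0.555). Where the 6 female libraries were fitted alone, D21-ovx against D21-s passed (0.89, limma adjusted p = 0.0285), and without M library 1, whose G6pc was the highest of the males, so did D21-s against M (0.70, limma adjusted p = 0.0362).

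Of 9 lactate genes tested, 1 was higher and 3 were lower in D21-s than in M, and 1 was higher and 1 lower in D21-ovx than in M. Among all genes tested, 4.28% were called higher and 4.87% lower in D21-s, and 5.63% and 6.19% in D21-ovx. Slc16a4, a gene of the monocarboxylate carrier family, was at 67.6 ± 3.72 FPKM in D21-ovx and 73.5 ± 4.38 in D21-s, against 29.1 in M (SD, n = 3; log2 fold changes 1.19 and 1.31, limma adjusted p = 7.55e-06 and 4.44e-06). Ldhd, which encodes the D-lactate dehydrogenase of mitochondria, was at 88.3 ± 0.450 FPKM in D21-ovx and 99.2 ± 3.09 in D21-s, against 199.6 in M (-1.16 and -0.996, limma adjusted p = 2.38e-05 and 7.86e-05). The monocarboxylate carrier gene Slc16a7 (-1.05, limma adjusted p = 0.0341) and Emb, which encodes embigin, a chaperone of such carriers (-0.80, limma adjusted p = 0.0356), were lower in D21-s than in M.

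Of 10 partners and regulators of the SGLTs, 1 was higher in D21-s than in M and 2 in D21-ovx than in M, and none was lower. Called in either direction were 9.15% and 11.8% of all genes tested, so counts this small carry no result about the list. Pdzk1, which encodes a scaffold of the brush border, was at 688 ± 62.3 FPKM in D21-ovx and 646 ± 11.5 in D21-s, against 521 in M (SD, n = 3; log2 fold changes 0.40 and 0.31, limma adjusted p = 0.00945 and 0.0332). Slc9a3r1, the gene of another scaffold there, was higher in D21-ovx than in M (0.22, limma adjusted p = 0.0323). This call was lost in 11 of the 21 other settings, among them quantile normalization (0.11, limma adjusted p = 0.239). Pdzk1ip1, whose product MAP17 is a subunit of SGLT2, averaged 707, 699 and 696 FPKM in D21-ovx, D21-s and M. In the fit of all 9 libraries no gene of the 3 lists was called in D21-ovx against D21-s, and G6pc was called there with the 6 female libraries alone, as given above.

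Many of these companion calls depended on the settings. Of 13 called in D21-s against M and 12 in D21-ovx against M, 5 in each were called under all 21 alternatives tried, and they were Slc16a4, Ldhd, Khk, Pck1 and Miox. Khk, which encodes the ketohexokinase that begins fructose breakdown, is named here after its values were seen, with log2 fold changes of 0.74 in D21-ovx and 0.49 in D21-s against M. In D21-s against M the calls of Pdzk1, Slc16a7, Emb and Hk1 were lost in each of 4 fits that left out M library 2, M library 3, D21-s library 2 or D21-s library 3, with limma adjusted p from 0.0837 to 0.126. With the marker covariate these were not called either, and the log2 fold changes of 3 of them were smaller by over 1.5 times, at -0.56 for Slc16a7 (limma adjusted p = 0.574), -0.37 for Emb (0.610) and -0.34 for Hk1 (0.605). In D21-ovx against M the G6pc call was lost without M library 2 (limma adjusted p = 0.0628) or without any 1 of the D21-ovx libraries (0.0526 to 0.0731), and with the marker covariate (0.213). Akr1b3 was not called with this covariate in D21-s (limma adjusted p = 0.348) or D21-ovx (0.0855) against M, and neither was Tkfc (0.220 and 0.0762). In D21-s against M the Akr1b3 call was lost in 4 of the 21 settings.

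**Figure D5:**
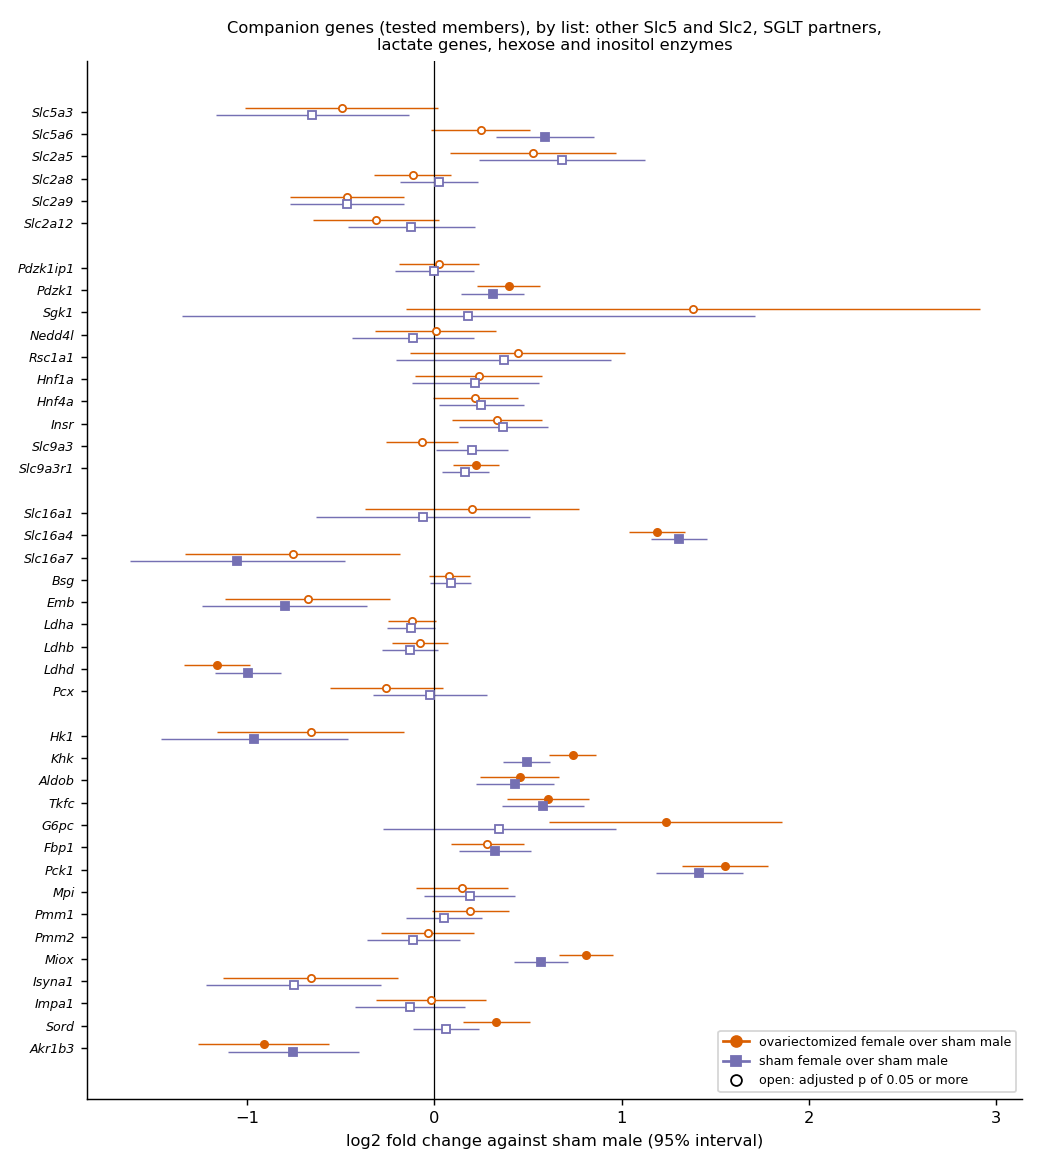
Log2 fold change of the tested companion genes and other Slc5 and Slc2 genes in D21-ovx against M (circles) and D21-s against M (squares), with 95% intervals from the limma fit, grouped by list; filled points passed an adjusted p of 0.05. Pck1 and Slc16a4 lie farthest to the right in D21-s against M and Ldhd lies near -1 in both comparisons.

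For each of the 4 genes that were higher in females, the 3 genes with the most similar profile were sought among 8365 genes, as the smallest root mean square difference of centred log2(FPKM + 1) over the 9 libraries. For Slc5a1 these were Bhmt2 (0.141), which encodes a homocysteine methyltransferase, Eci3 (0.156), an enoyl-CoA isomerase gene, and Slc13a3 (0.167), a dicarboxylate carrier gene. Slc5a10 was nearest to Papss2 (0.200), which encodes a synthase of the sulfate donor PAPS, Tmem37 (0.220) and Eci3 (0.255). Slc5a11 had closer neighbours, Fbp2 (0.0926), a fructose bisphosphatase gene, Lyplal1 (0.0966) and Cotl1 (0.0998). Slc5a8 was nearest to the organic anion carrier gene Slc22a8 (0.137), Cth (0.138), which encodes cystathionine gamma-lyase, and Mfsd4b1 (0.141). Eci3 was the only gene to stand near 2 of the 4, and Slc13a3 and Slc22a8 were also on the list of early proximal tubule markers given above.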

How the data were processed

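Libraries were made from total RNA with a kit that keeps strand, and STAR 2.6.0c and RSEM are named as tools, per the submitters' processing notes. Not given in the sources used here are RSEM's version, genome build, annotation and strand setting. In the deposited table stand values in FPKM per gene and library, which the authors computed, and no further scaling is stated. It has 4 further value columns, which match no sample and were not used. Positions came from GENCODE M21 (GRCm38), in which 52147 of the 52405 Ensembl IDs were found. RefSeq supplied the promoter windows.

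FPKM hold no read counts, so the depth of 21.25 to 28.75 times 1e+06 reads is an estimate: at the best fit 67.07% to 74.11% of low values fell on steps of whole reads, against a median of 6.157% to 6.707% over the grid. No counting intervals were computed. FPKM sums were 693451 to 734990, of which mitochondrially encoded genes made 24.63% to 27.28%.

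Genes with FPKM of at least 1 in at least 3 libraries were tested, 13160 in all, and all 10 carriers were among them. Values were taken as log2(FPKM + 1), which understates changes of low genes, and limma 3.58.1 (R 4.3.3) estimated a mean for each of the 3 groups from all 9 libraries, with empirical Bayes variances that follow a trend. Two-sided p-values were adjusted over the 13160 genes by the Benjamini-Hochberg method, and calls were made where the adjusted value was under 0.05. Before use the fit was run on simulated data with independent normal noise, so spread that genes share within a library was not covered. Ratios of FPKM were compared with exact permutation tests, over pairs as an addition. Alternatives were another pseudocount (0.1 or 0.5), no filter or a mean FPKM of 5, median-ratio scaling, quantile normalization, rescaling without mitochondrially encoded genes, other variance models, a replicate block, a covariate, 2 groups only and each library left out. Annotation steps ran in Python 3.11.15 with pandas 2.3.3 and numpy 2.4.6, and plots were drawn with matplotlib 3.10.9.

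The 10 carriers, the lists and the tests were chosen with earlier results of these data known. Named are the 10 carriers, Prom1, up to 4 called genes of each companion list and comparison by size of change, and the 3 nearest profiles of each called carrier; 1 list of companion genes is not reported here. Replicate numbers stand in the labels with no statement that they pair libraries. In D21-ovx and D21-s, same-numbered libraries deviated from their group means together (r = 0.347, 0.174 and 0.291 over genes). Differently numbered libraries of these groups had r from -0.325 to 0.054. Between D21-s library 1 and M library 2 r was 0.282, so values of this size do not show that the numbers pair libraries. With the replicate block 0 carriers were called in D21-ovx against D21-s.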

Additional observations from a re-analysis of the deposited data

How the results depend on the processing

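Each carrier was refitted under 21 settings in each of the 3 comparisons. Of these 630 values, 613 kept their direction and their side of the threshold, 0 called values changed direction, 2 calls were lost and 6 were gained, and 9 uncalled values changed sign. Slc5a1, Slc5a10 and Slc5a8 were called in every setting against M, with adjusted p up to 0.0434 in D21-s and 0.0476 in D21-ovx. The lost calls are those of Slc5a11 with the marker covariate, and the gained ones those of Slc5a2, Slc5a9 and Slc2a4 given above. The number of carriers called ran from 3 to 5 in D21-s against M, stayed at 0 in D21-ovx against D21-s and ran from 4 to 5 in D21-ovx against M. The replicate block gave 4, 0 and 4 carriers, and changed the call of no carrier. Among all genes it gave 1110, 0 and 1524, against 1204, 1 and 1555 without it. Same-numbered libraries correlated at -0.125, 0.145 and 0.280 in D21-s and M and at -0.030, 0.016 and 0.075 in D21-ovx and M.

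Counts over all genes moved more. In D21-s against M they were 739 with no filter, 334 with the marker covariate, 722 with the 6 libraries alone and 570 to 735 without M library 2, M library 3, D21-s library 2 or D21-s library 3. In D21-ovx against M they were 664 with the covariate and 877 to 1022 without M library 2, M library 3 or any 1 of the D21-ovx libraries. In D21-ovx against D21-s 0 to 11 genes were called. The log2 ratio of Slc5a1 to Slc5a2 in D21-ovx against D21-s ran from -0.0223 without D21-s library 3 to 0.397 without D21-ovx library 3. That of Slc2a1 to Slc2a2 in D21-ovx against M was 0.15 under quantile normalization and ran from -0.39 without M library 1 to 0.20 without M library 2. The cause of these movements was not tested. With 3 libraries a group and depths known only as estimates, small differences remain uncertain. Among the carriers, the limma SE of the log2 fold change in D21-s against M was largest for Slc5a12 (0.29), followed by Slc2a4 (0.26).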
